A study of Mus musculus with 20 samples.

Results

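Glucocorticoid-responsive genes were followed in mouse gastrocnemius, a calf muscle, in mice labelled with and without a muscle Bmal1 knockout and with and without a single run. The members were the 10 rows of the deposited count table named Fkbp5, Tsc22d3, Zbtb16, Sgk1, Klf9, Klf15, Ddit4, Errfi1, Sesn1 and Cebpd, of 53311 rows in all. They were listed as known targets of the glucocorticoid receptor. All 10 passed the filter on low counts, which left 13560 genes for testing. Each symbol occurred once in the table.

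Glucocorticoids such as corticosterone, the main one in mice, enter cells and bind the glucocorticoid receptor, a nuclear receptor that waits in the cytoplasm with HSP90 and cochaperones. The hormone-bound receptor moves to the nucleus and binds DNA elements, of which the classical form is a palindrome of paired half-sites. In skeletal muscle its targets restrain growth signalling and favour the release of amino acids, and the secretion of corticosterone itself follows the circadian clock and rises with exertion. The hormone was not part of the data used here.

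RNA was sequenced from 20 samples in 4 groups of 5. By genotype label all 20 carried Cre and floxed Bmal1 alleles (Cre+:iMSBmal1 fl/fl), so that vehicle controls share them, and the groups differed in the treatment label. They were vehicle without exercise, vehicle with exercise, iMSBmal1KO without exercise and iMSBmal1KO with exercise. The clock protein BMAL1 is the product of Arntl and pairs with CLOCK on E-box elements. Exercise was 30 min on a treadmill, and muscle was taken 1 h later. Resting samples were labelled zeitgeber time (ZT, hours after lights on) 13, and exercised samples ZT 13 with 1 h post. The labels do not settle whether exercised muscle was taken at a later clock hour than resting muscle, so the run and the hour cannot be told apart. The animals' age and sex, the compound that induces the knockout and the promoter that drives Cre were not in the labels used here, nor was it stated that each sample came from a separate animal, so p-values measure the spread between these samples. The description label of the exercised iMSBmal1KO samples speaks of training and their title of acute exercise. They were taken as acute.

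Total counts ran from 8045154 to 11269812 per library. The 10 members held between 36 and 4722 counts in any library. The targeted gene went against the label: Arntl stood at 12.3 ± 2.39 CPM (counts scaled to a library total of 1000000) in vehicle and 14.5 ± 1.94 CPM in iMSBmal1KO muscle at rest (SD, n = 5 each), and at 14.3 ± 5.71 and 16.4 ± 4.15 CPM after exercise. The deleted part of the gene is not known from the labels, and which exons the counts cover is not given in the sources used here; part of Arntl is also covered by Gm45355 on the opposite strand. The libraries are therefore called knockout-labelled, and each genotype direction rests on the labels. Of 8 clock output genes listed as a check, 7 were lower in knockout-labelled muscle at rest and 7 after exercise (edgeR quasi-likelihood test, adjusted p under 0.05), Dbp falling from 75.0 ± 7.46 to 11.8 ± 1.34 CPM at rest. These 8 genes were chosen with earlier results of these data known, so they are not an independent check of the labels. Of all genes tested, 2.06% were called lower at rest and 3.75% after exercise. Fibre makeup varied from library to library. Markers of slow fibres, 7 genes all present in the table, summed to between 35.5 and 3538.5 CPM, with wide and overlapping ranges in all 4 groups (smallest exact permutation p 0.19 over the 4 comparisons between groups). Fast-fibre markers, 8 of 8 present, summed to between 96704.0 and 182852.0 CPM, so the markers of fast muscle were present in every library.

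Before the values, the promoter letters that bear on hormone and clock were read, since a receptor element or an E-box is the form in which either regulator is known to meet DNA. Windows of 250 bases before to 50 bases after each start came from RefSeq (assembly GRCm38.p6) and covered 8 of the 10 members with 17 windows; Zbtb16 and Cebpd had none. The motifs searched on both strands were the receptor half-site AGAACA (or TGTTCT), the full palindrome, made of both half-sites with any 3 bases between them, the E-box CACGTG, and the D-box TTANGTAA (or TTACNTAA), at which the clock output factor DBP and its relatives bind. The stretches shown are those that hold the palindrome, a half-site of Tsc22d3, and the E-boxes of Fkbp5 and Klf15, in lower case with every half-site and E-box in capitals, 5′ to 3′ on the strand of the gene.
Sgk1: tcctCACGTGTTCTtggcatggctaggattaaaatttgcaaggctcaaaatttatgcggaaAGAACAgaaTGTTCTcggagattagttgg
Tsc22d3: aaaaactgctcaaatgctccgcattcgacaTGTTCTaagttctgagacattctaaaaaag
Fkbp5: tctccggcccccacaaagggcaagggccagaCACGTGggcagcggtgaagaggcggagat
Klf15: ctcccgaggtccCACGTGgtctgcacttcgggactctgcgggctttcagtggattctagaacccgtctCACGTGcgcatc

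The Sgk1 stretch lies at chr10:21993640-21993729 on the plus strand, inside the Sgk1 gene and outside its annotated exons in GENCODE M21, upstream of an internal start. It holds the full palindrome 189 bases before that start and, farther out, an E-box that overlaps a half-site. Only 3 of 32851 windows in the table (0.00913%) hold this palindrome, and that of Sgk1 is 1 of them. The Tsc22d3 stretch (chrX:140600678-140600737, minus strand) and the Klf15 stretch (chr6:90462336-90462415, plus strand) lie outside annotated genes. The Fkbp5 stretch (chr17:28486290-28486349, minus strand) lies within the gene's own bounds and outside its exons. Half-sites were found in windows of 2 of the 8 members, Sgk1 and Tsc22d3, in 4 of the 17 windows, and occur in 19.0% of all windows. E-boxes were found in windows of 3 of the 8, Fkbp5, Klf15 and Sgk1, in 3 of the 17 windows, and occur in 7.15% of all windows. The D-box was in 0 of the 17 windows and occurs in 2.32% of all windows. Klf15 held 3 E-boxes in its window, of which the one nearest the start crosses it and is not shown. A match of letters does not show that a factor binds there, and elements outside these windows were not read.

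With exercise in vehicle muscle 1 member, Klf15, was called, and it was higher after the run (edgeR quasi-likelihood test on all 20 libraries, Benjamini-Hochberg adjusted p under 0.05 over 13560 genes). Ddit4 had by far the largest value of the 10 members, an 8.24-fold higher fitted level, and narrowly missed the threshold. Of the 10 members 8 had positive and 2 negative log2 fold changes, with a median of 0.44 against 2.6e-05 over all genes tested. The background is that 0.804% of all genes were called in this comparison, 0.605% as higher, and the 1 member of 10 is a single gene.

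Klf15 encodes a zinc finger transcription factor that acts downstream of the glucocorticoid receptor in muscle and drives amino acid breakdown. In vehicle at rest its level in replicates 1 to 5 was 40.9, 42.8, 52.6, 39.6 and 40.6 CPM, where totals were scaled between libraries with edgeR's TMM factors. After the run it was 66.9, 62.6, 80.7, 64.0 and 49.6 CPM. Of the 5 exercised libraries 4 lay above all resting ones, and replicate 5 lay below the highest resting library. The log2 fold change was 0.58 (SE 0.14, 95% interval 0.30 to 0.86, adjusted p 0.0397), and an exact two-sided permutation test of the log2 CPM gave p = 0.0159 (adjusted 0.136 over 40 such tests, for which the smallest possible p is 0.00794). Leaving out 1 library ended this call in 8 of 10 fits, with adjusted p-values up to 0.141 (without exercised replicate 3), and it was called in 6 of 12 other settings, scaling by library size alone raising the adjusted p to 0.166. In knockout-labelled muscle the 5 resting libraries held 46.3, 45.2, 40.7, 53.9 and 61.5 CPM of Klf15, and the 5 exercised ones 63.9, 48.3, 71.6, 46.7 and 58.7 CPM. These ranges overlapped, and the log2 fold change of 0.22 (SE 0.13) was not called.

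Ddit4 encodes REDD1, an inhibitor of the growth kinase complex mTORC1 that is induced by glucocorticoids, low oxygen and energy stress. At rest the vehicle libraries held 7.66, 21.0, 12.5, 17.1 and 10.7 CPM, and after the run 41.4, 246.8, 46.6, 159.5 and 76.9 CPM. Every exercised vehicle library was above every resting one, a separation that 2.04% of all genes showed in this comparison, but the exercised libraries were themselves spread from 41.4 to 246.8 CPM. The log2 fold change was 3.04 (SE 0.70, 95% interval 1.57 to 4.52), with an adjusted p of 0.0543 and an exact permutation p of 0.00794 (adjusted 0.106). It was called in 3 of 12 other settings, with adjusted p-values from 4.59e-04 with DESeq2 to 0.13 with limma-voom, and in 1 of 10 fits that left out a library. Knockout-labelled muscle at rest had the largest spread relative to its mean for this gene, at 26.2, 4.14, 7.97, 79.7 and 37.2 CPM. After the run the knockout-labelled libraries held 94.7, 100.9, 44.1, 42.1 and 76.9 CPM. The single resting library at 79.7 CPM, replicate 4, was higher than 3 of these, and the log2 fold change of 1.21 (SE 0.65, adjusted p 1) was not called.

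**Figure D1:**
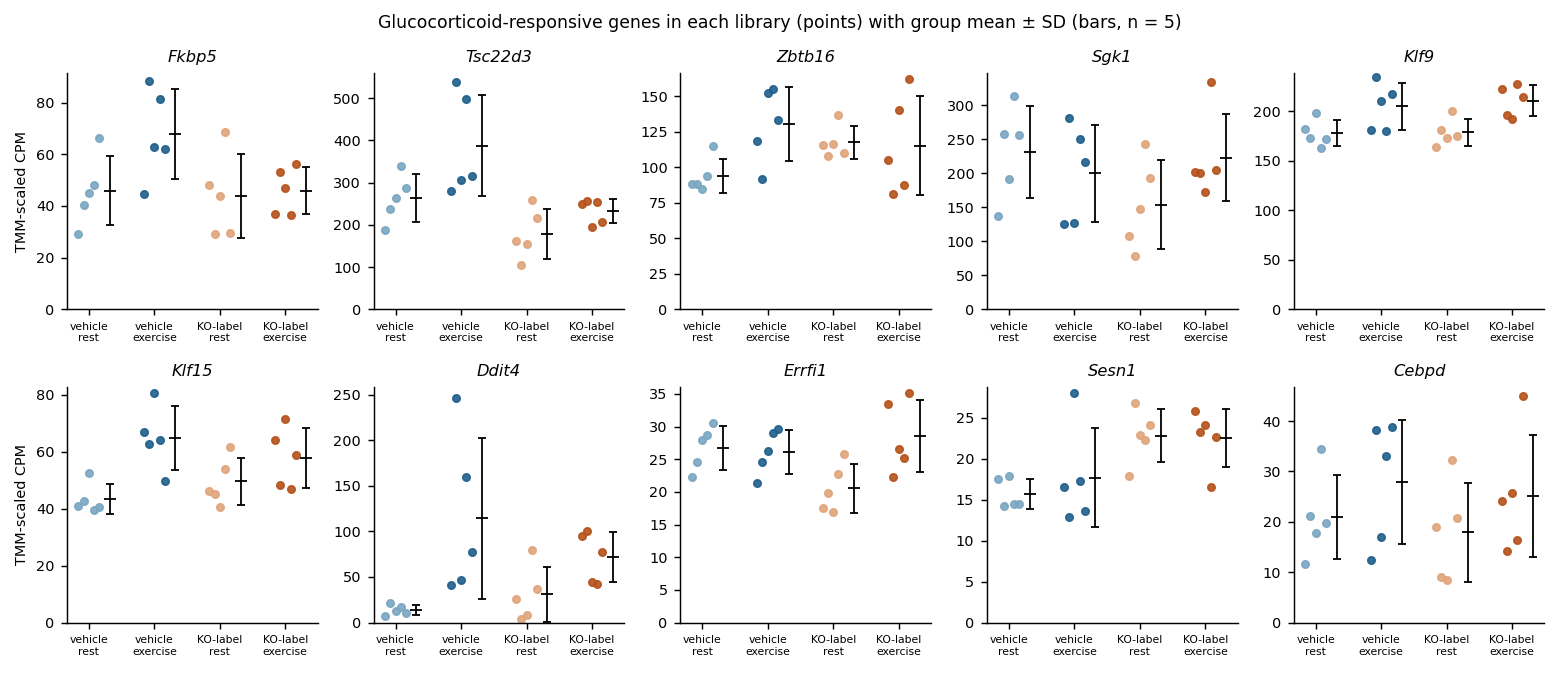
TMM-scaled CPM (linear axes from 0) of the 10 genes in the 20 libraries. Points are libraries in replicate order within each group, and bars give the group mean ± SD (n = 5). Ddit4 separates exercised from resting vehicle muscle, Klf15 does so except for replicate 5, and Tsc22d3 is lower in all exercised knockout-labelled libraries than in any exercised vehicle library.

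Fkbp5, Tsc22d3, Zbtb16 and Klf9 were not called with exercise in vehicle, though each had an unadjusted p under 0.05, as did 8.92% of all genes. Fkbp5 encodes FKBP51, a cochaperone that lowers the affinity of the receptor for hormone and so closes a feedback loop. It stood at 29.3, 40.5, 45.1, 48.2 and 66.1 CPM at rest and at 44.6, 88.3, 62.9, 81.4 and 61.9 CPM after the run, ranges that overlapped (log2 fold change 0.56, SE 0.25, adjusted p 0.48). Tsc22d3 encodes GILZ, a mediator of the anti-inflammatory action of glucocorticoids. It stood at 187.7, 237.8, 262.9, 339.4 and 287.9 CPM at rest and at 281.2, 537.3, 306.6, 497.1 and 314.8 CPM after the run (log2 fold change 0.56, SE 0.22, adjusted p 0.404). For both genes exercised replicates 2 and 4 were well above the other exercised libraries. Zbtb16, the zinc finger factor PLZF, had group means of 94.0 ± 12.2 CPM at rest and 130.2 ± 26.1 CPM after the run, a log2 value of 0.47 that was not called (adjusted p 0.297). Klf9, a Krüppel-like factor and direct receptor target in many tissues, had means of 177.9 ± 13.4 and 204.8 ± 23.8 CPM, a log2 value of 0.20 (adjusted p 0.466).

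The remaining 4 members had unadjusted p-values over 0.05 in vehicle. Sgk1, a kinase related to AKT that acts on ion transport and protein balance, stood at 231.2 ± 67.8 CPM at rest and 200.3 ± 71.3 CPM after the run (log2 fold change -0.21, SE 0.31, 95% interval -0.86 to 0.45). Errfi1, which encodes MIG6, an inhibitor of the EGF receptor family, stood at 26.8 ± 3.37 and 26.1 ± 3.36 CPM. Sesn1, a sestrin that restrains mTORC1 when amino acids are short, stood at 15.7 ± 1.82 and 17.7 ± 6.08 CPM. Cebpd, a C/EBP transcription factor that responds to glucocorticoids and cytokines, stood at 21.0 ± 8.35 and 27.9 ± 12.4 CPM, and part of its exons overlap the opposite-strand gene Spidr, with no statement that counting used strand. None of these 4 was called.

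In knockout-labelled muscle no member was called with exercise, as no gene was (0% called by edgeR, 0 by DESeq2, with 639 genes, or 4.71%, at an unadjusted p under 0.05 and 2 of the 10 members). There were 8 positive and 2 negative log2 fold changes, with a median of 0.31 against 2.7e-04 over all genes. Errfi1 had the smallest p of the members, at 17.5, 19.8, 16.9, 22.8 and 25.8 CPM at rest and 33.4, 22.3, 26.5, 25.2 and 35.2 CPM after the run (log2 fold change 0.47, SE 0.14, unadjusted p 0.00209, adjusted p 0.813). Of its 5 exercised libraries 3 were above all resting ones. Klf9 had a value close to that in vehicle, 178.6 ± 13.7 at rest and 210.6 ± 15.7 CPM after the run (log2 fold change 0.24, SE 0.09, unadjusted p 0.0135).

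Whether a member's response differed between genotypes was tested by the interaction, which called 0 members and 0% of all genes (2 members and 791 genes, or 5.83%, at an unadjusted p under 0.05, and 0 members and 2 genes by DESeq2). The largest difference was that of Ddit4, a log2 difference of -1.84 (SE 0.93) whose 95% interval from -3.80 to 0.13 leaves room for a wide range of sizes. It was -1.12 without resting knockout-labelled replicate 4 and -0.97 with limma-voom. Errfi1 (0.51, interval 0.11 to 0.91, adjusted p 0.78) and Zbtb16 (-0.50, interval -0.98 to -0.01, adjusted p 0.849) had unadjusted p-values under 0.05. For Klf9 the interval was narrow, from -0.23 to 0.29. Averaged over both genotypes, the mean exercise response was positive in all 10 members and called in 0 of them, beside 0.634% of all genes, while 5 members and 8.28% of all genes had an unadjusted p under 0.05. Klf15 (log2 fold change 0.40, adjusted p 0.0505) and Ddit4 (2.12, adjusted p 0.0534) were next to the threshold, and Klf9 (0.22, adjusted p 0.14) had a small and even value. DESeq2 called these 3.

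**Figure D2:**
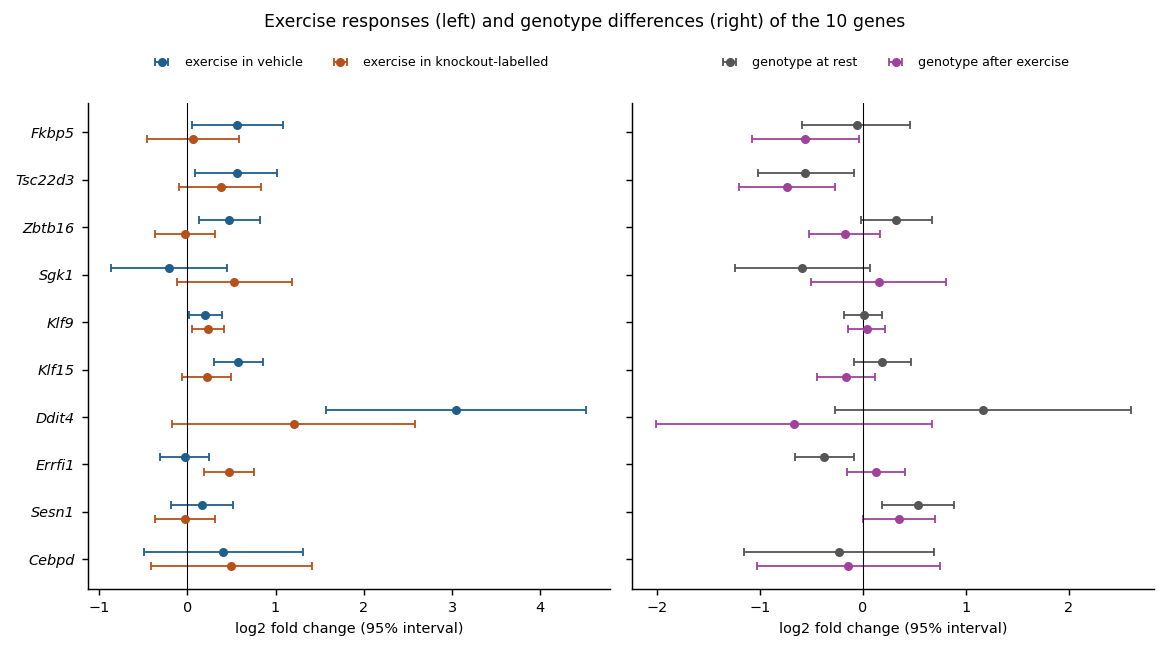
Log2 fold changes with 95% intervals from the edgeR fit for the 10 genes: exercise against rest in each genotype on the left, knockout-labelled against vehicle in each state on the right. Klf15 and Ddit4 have the exercise values in vehicle that lie farthest above 0 beside their intervals, and Tsc22d3 lies below 0 and Sesn1 above 0 in both genotype comparisons.

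At rest no member was called between genotypes, beside 3.86% of all genes (1.80% higher and 2.06% lower), and the members were split into 5 positive and 5 negative values with a median of -0.03 (0.0087 over all genes). Sesn1, Errfi1 and Tsc22d3 had unadjusted p-values under 0.05, as did 14.6% of all genes. Sesn1 stood at 17.5, 14.2, 17.9, 14.5 and 14.5 CPM in vehicle and 17.9, 26.8, 22.9, 22.3 and 24.1 CPM in knockout-labelled muscle. The lowest knockout-labelled library just cleared the highest vehicle one, a separation seen in 5.80% of all genes, and the log2 fold change was 0.54 (SE 0.17, adjusted p 0.0862, exact permutation p 0.00794). Tsc22d3 stood at 160.8, 105.1, 155.3, 258.0 and 215.8 CPM in knockout-labelled muscle, with 3 of 5 libraries below all vehicle ones (log2 fold change -0.56, SE 0.22, adjusted p 0.224). Errfi1 was at 20.6 ± 3.70 CPM against 26.8 ± 3.37 CPM (log2 fold change -0.38, adjusted p 0.153).

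After exercise Tsc22d3 had the smallest adjusted p of the 10 members between genotypes. The knockout-labelled libraries held 249.9, 256.0, 194.7, 254.5 and 206.9 CPM, all below the lowest vehicle library at 281.2 CPM. The log2 fold change was -0.74 (SE 0.22, 95% interval -1.20 to -0.27), with an adjusted p of 0.0538 and an exact permutation p of 0.00794 (adjusted 0.106). It passed the threshold in 7 of 12 other settings, among them the fit with the replicate number as a block (adjusted p 0.0383) and DESeq2, and missed it by most with no filter (0.134). Among the fits that left out 1 library it passed in 2 of 10, with adjusted p-values up to 0.145 (without exercised vehicle replicate 2). No member was called in the fit as designed, beside 6.42% of all genes (2.67% higher and 3.75% lower), and 1 of 10 had groups that did not overlap, beside 6.29%. The 10 values were 4 positive and 6 negative with a median of -0.15 (0.015 over all genes), and 3 members and 19.4% of all genes had an unadjusted p under 0.05. Fkbp5 stood at 36.9, 53.0, 46.9, 36.3 and 56.2 CPM in knockout-labelled muscle after the run, against 67.8 ± 17.3 CPM in vehicle (log2 fold change -0.56, SE 0.25, adjusted p 0.213), and 2 of its 5 libraries were below all vehicle ones. Sesn1 was again higher by its fitted value (0.35, SE 0.17, adjusted p 0.251). Its vehicle libraries held 16.6, 12.9, 28.0, 17.3 and 13.6 CPM, and without the one at 28.0, replicate 3, the difference was called (log2 fold change 0.57, adjusted p 0.0136). That was the 1 call of Sesn1 among 10 fits that left out a library, and 0 of 12 other settings called it. Without exercised vehicle replicate 2 its adjusted p rose to 0.449. The comparisons at rest and after exercise share no library.

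Averaging the genotype difference over both exercise states used all 20 libraries and called 2 members, beside 11.0% of all genes (5.18% higher and 5.78% lower), so with 10 genes the members' share is not far from the background. At an unadjusted p under 0.05 the same 2 members stood beside 24.2% of all genes. Tsc22d3 was lower in knockout-labelled muscle, with a mean log2 fold change of -0.65 (SE 0.16, adjusted p 0.00994). Sesn1 was higher, with 0.44 (SE 0.12, adjusted p 0.0157). Both calls held in all 11 other settings and in all 20 fits that left out 1 library, with adjusted p-values of at most 0.0289 for Tsc22d3 and 0.0365 for Sesn1. The other 8 members were not called. Knockout-labelled muscle held Zbtb16 at 117.6 ± 11.4 CPM at rest and 115.3 ± 34.8 CPM after the run, Sgk1 at 154.0 ± 65.6 and 223.2 ± 63.6 CPM, and Cebpd at 17.9 ± 9.85 and 25.1 ± 12.2 CPM, each within reach of the vehicle libraries. Klf9 (0.02, 95% interval -0.11 to 0.15) and Klf15 (0.02, interval -0.18 to 0.21) had narrow intervals around 0. Ddit4 had the widest (0.25, interval -0.73 to 1.22).

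The members did not vary together in a single way. Compared per kilobase of annotated exon in vehicle at rest, Tsc22d3 (60.6 CPM per kb), Sgk1 (47.2) and Klf9 (36.9) had the highest levels, Zbtb16 (17.8) and Klf15 (15.5) lay between, and Ddit4, Errfi1, Cebpd, Fkbp5 and Sesn1 lay between 7.85 and 3.95 CPM per kb. Neighbours in this order, such as Ddit4 and Errfi1, are not told apart by their spread. In knockout-labelled muscle at rest, replicate 4 was the highest of 5 libraries for 7 of the 10 members (Fkbp5, Tsc22d3, Zbtb16, Sgk1, Klf9, Ddit4 and Cebpd), and replicate 2 was the lowest for 5 (Fkbp5, Tsc22d3, Zbtb16, Sgk1 and Ddit4). Replicate 1 was the lowest for 6 members in vehicle at rest and for the same 6 in vehicle after exercise: Fkbp5, Tsc22d3, Sgk1, Ddit4, Errfi1 and Cebpd. Klf15 and Sesn1 went another way and were highest in replicate 3 in both vehicle groups.

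In 2 of the groups the libraries with the highest values of all 3 genes Tsc22d3, Fkbp5 and Ddit4 were poor in slow-fibre transcripts. In the other groups this held for some of these genes. In exercised vehicle muscle, replicates 2 and 4 had slow-fibre sums of 35.5 and 93.1 CPM and the highest values of all 3 genes, while replicates 1 and 3 had sums of 1980.1 and 2343.5 CPM and the lowest values of Tsc22d3 and Ddit4. In resting knockout-labelled muscle, replicate 4 had the lowest slow-fibre sum (211.2 CPM) and the highest Ddit4 (79.7 CPM), and replicate 2 the highest sum (3538.5 CPM) and the lowest Ddit4 (4.14 CPM). In vehicle muscle at rest the sums were 2421.8, 2107.1, 1148.4, 622.2 and 75.8 CPM in replicates 1 to 5. Fkbp5 ran in the opposite order, from 29.3 CPM in replicate 1 to 66.1 CPM in replicate 5. Tsc22d3 did so too, except that replicate 4 (339.4 CPM) lay above replicate 5 (287.9 CPM). Ddit4 did not follow this order and was highest in replicate 2 (21.0 CPM). In exercised knockout-labelled muscle replicates 2 and 4, with sums of 48.3 and 48.5 CPM, held the highest Tsc22d3 (256.0 and 254.5 CPM). Replicates 3 and 5, with sums of 1320.7 and 2377.3 CPM, held the lowest (194.7 and 206.9 CPM). Ddit4 did not follow this order there, with its highest and lowest values in replicates 2 and 4 (100.9 and 42.1 CPM). Nor did Fkbp5, which was highest in replicate 5 (56.2 CPM). In bulk tissue fewer cells of a type and less RNA per cell cannot be told apart. With the slow-fibre score (mean log2 CPM of the markers) as a covariate, the exercise value of Ddit4 in vehicle was 2.45 in place of 3.04 (adjusted p 0.0642) and that of Klf15 was 0.63 in place of 0.58 (adjusted p 0.00831). The same fit left the genotype value of Tsc22d3 after exercise at -0.73 (adjusted p 0.00507) and that of Sesn1 at rest at 0.49 (adjusted p 0.0476). The summed markers of fat cells, fibroblasts, leukocytes, endothelium, blood, nerve and satellite cells passed no test between groups (36 exact permutation tests with the 2 fibre types included, smallest p 0.0794, adjusted 0.909), and no marker was at 0 in all libraries.

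**Figure D3:**
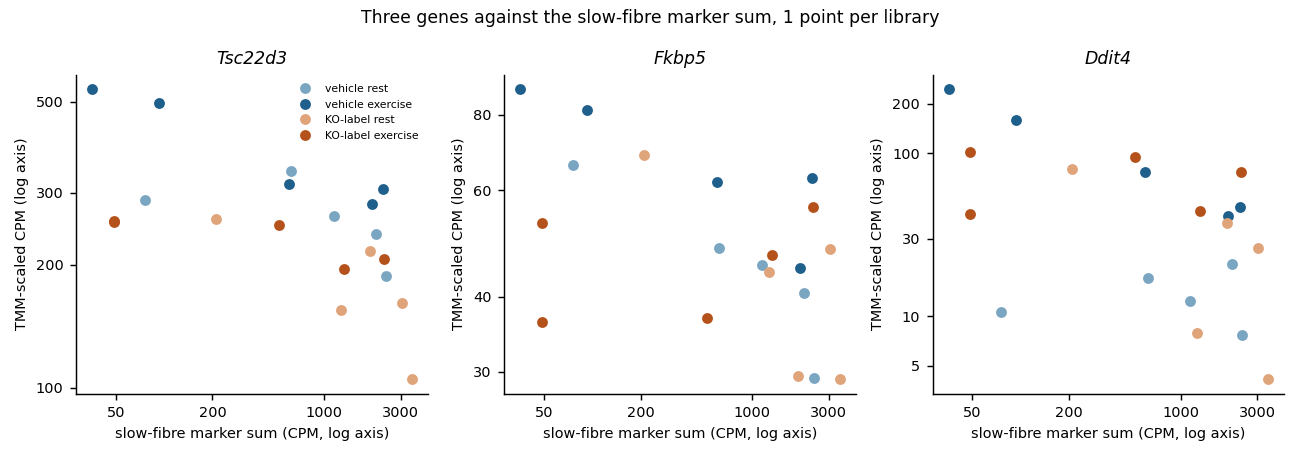
TMM-scaled CPM of 3 genes (log axes) against the summed CPM of 7 slow-fibre markers, 1 point per library, coloured by group. The exercised vehicle libraries with sums of 35.5 and 93.1 CPM are the highest for Tsc22d3 and Fkbp5, and no p is attached to these relations.

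For each member the genes with the most similar log2 CPM over the 20 libraries were looked up among 11723 genes with a mean log2 CPM of at least 1, as a description over libraries that share groups and fibre makeup. Tsc22d3 was most like Glul, itself on the list of other glucocorticoid-induced genes (Pearson r 0.92), and Teddm2 (0.92). Ddit4 was most like Zfp36, another gene of that list, and Wbp1l (0.86 each). Klf15 was most like Maff (0.87) and Impact (0.86), Sesn1 like Alpk2 (0.85) and Anp32a (0.84), and Sgk1 like 2900052L18Rik (0.85) and Sfr1 (0.81). Top1mt (0.82) was among the 2 genes most like Fkbp5. Zbtb16, Klf9, Errfi1 and Cebpd had lower best values, from 0.73 to 0.79, led by Col4a2, Egr1, Ski and Gadd45g. No member was among the 2 most similar genes of another member.

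The receptor through which these genes are known to respond was measured in the same libraries. Nr3c1, which encodes the glucocorticoid receptor, rose with exercise in vehicle, from 70.2, 72.3, 77.0, 62.7 and 63.8 CPM to 80.7, 140.5, 106.6, 123.5 and 84.4 CPM (log2 fold change 0.63, SE 0.13, adjusted p 0.0154). Every exercised vehicle library was above every resting one, beside 2.04% of all genes whose groups did not overlap in either direction. Knockout-labelled muscle held 58.3, 80.8, 72.5, 70.1 and 65.6 CPM of Nr3c1 at rest and 65.7, 69.4, 61.5, 78.5 and 58.8 CPM after the run, so that after exercise all 5 were below all 5 vehicle libraries (log2 fold change -0.68, SE 0.13, adjusted p 0.00148). Between genotypes after exercise, 6.29% of all genes had groups that did not overlap. The interaction of Nr3c1 (-0.69, SE 0.18, unadjusted p 9.67e-04) was not called (adjusted p 0.671). The call with exercise was lost in 3 of 10 fits without 1 library (adjusted p up to 0.061, without exercised replicate 4) and when only both groups of the comparison were fitted (0.0804), while the genotype call after exercise held in all 10 such fits and all 12 other settings.

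Of 17 genes of receptor and ligand handling 16 were tested, Hsd11b2 being too low, and 3 were called higher with exercise in vehicle, beside 0.605% of all genes: Nr3c1, Hsp90aa1 and Stip1. The list had a median log2 fold change of 0.15 against 2.6e-05 over all genes. Hsp90aa1 (1.5, adjusted p 0.0336), the stress-inducible HSP90, and Stip1 (0.44, adjusted p 0.0385), the cochaperone HOP that loads the receptor onto it, lost their calls in 8 and 7 of 10 fits without 1 library (adjusted p up to 0.107 without resting replicate 4, and 0.144 without exercised replicate 4), and only 1 of the 16 was called with library size alone, limma-voom, only the groups compared or the replicate block. In knockout-labelled muscle 0 of the 16 were called with exercise. After exercise 3 were lower in knockout-labelled than in vehicle muscle, beside 3.75% of all genes, namely Nr3c1, Nrip1, which encodes the corepressor RIP140 (-1.02, adjusted p 0.0014), and Fkbp4, which encodes FKBP52, the counterpart of FKBP51 (-0.29, adjusted p 0.0489, not called in 7 of 10 fits that left out a library, reaching 0.12 without knockout-labelled replicate 4). At rest none of the 16 was called between genotypes by edgeR, and DESeq2 called 1. Nrip1 alone had an unadjusted p under 0.05 at rest (-0.60, SE 0.19, adjusted p 0.0846), beside 14.6% of all genes. Averaged over both states, Nrip1 (-0.81, adjusted p 2.17e-04) and Nr3c1 (-0.34, adjusted p 0.0157) were called lower, beside 5.78% of all genes. The interaction of Nrip1 (-0.42, SE 0.26, adjusted p 0.895) was not called.

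**Figure D4:**
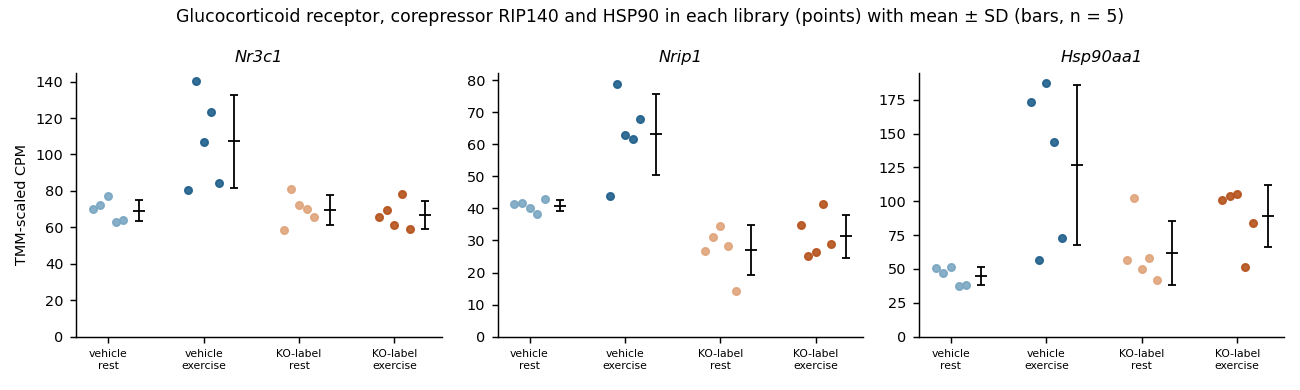
TMM-scaled CPM (linear axes from 0) of the receptor gene Nr3c1, the corepressor gene Nrip1 and the chaperone gene Hsp90aa1 in the 20 libraries, with group mean ± SD (n = 5). The exercised vehicle group is the highest on average for all 3 genes, and all its Nr3c1 values lie above those of the exercised knockout-labelled group.

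Of 22 other genes known to be induced by glucocorticoids, 21 were tested, Lcn2 being too low. This list, like the others, was chosen with earlier results of these data known, so its counts are a description. In vehicle 5 rose with exercise and none fell, beside 0.605% of all genes called higher and 0.199% lower, and 19 had positive values, with a median log2 fold change of 0.75 against 2.6e-05 over all genes. Those called were the metallothioneins Mt2 (3.02, adjusted p 0.00803) and Mt1 (2.06, adjusted p 0.00814), which bind zinc, Foxo1 (1.42, adjusted p 0.0287), a transcription factor of muscle wasting, Cdkn1a (1.21, adjusted p 0.00407), the cell cycle inhibitor p21, and Lpin1 (0.58, adjusted p 0.00179), a phosphatidic acid phosphatase. Foxo1 lost its call in 6 of 10 fits without 1 library (adjusted p 0.0943 without resting replicate 5). In knockout-labelled muscle 18 of 21 had positive values, with a median of 0.39, and 0 were called by edgeR, with 4 at an unadjusted p under 0.05 beside 4.71% of all genes. The interaction called 0 of the 21, with 6 at an unadjusted p under 0.05 beside 5.83% of all genes. As a mean of both genotypes, the clock gene Per1 (1.03, adjusted p 0.0326) and Pdk4 (0.76, adjusted p 0.048), which holds back glucose oxidation, were called too, with Mt1, Mt2, Lpin1 and Cdkn1a. In that mean 0.494% of all genes were called higher. Many of these genes also answer to other signals of exercise.

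**Figure D5:**
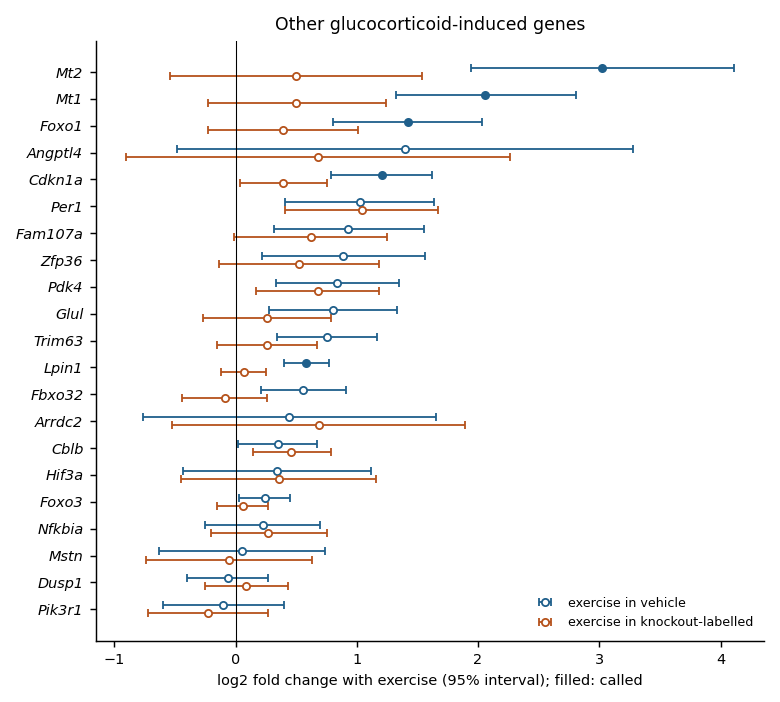
Log2 fold change with exercise and 95% interval for 21 other glucocorticoid-induced genes, in vehicle and in knockout-labelled muscle; filled points were called at an adjusted p under 0.05. The 5 filled points, Mt2, Mt1, Foxo1, Cdkn1a and Lpin1, are all in vehicle.

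Between genotypes the same list was mixed. Of all genes, 1.80% were called higher and 2.06% lower at rest, and 2.67% and 3.75% after exercise. Averaged over both states these shares were 5.18% and 5.78%. At rest 3 genes were higher in knockout-labelled muscle, Cdkn1a (3.87, adjusted p 5.45e-11), Lpin1 (0.52, adjusted p 8.09e-04) and Pdk4 (0.88, adjusted p 0.0478, not called in 8 of 10 fits that left out a library, reaching 0.174 without knockout-labelled replicate 2), and none was lower. After exercise Cdkn1a was higher (3.05, adjusted p 1.07e-09), and Foxo1 (-1.14, adjusted p 0.0245) and Glul (-0.91, adjusted p 0.0367), the glutamine synthetase gene, were lower. Leaving out 1 library ended the call of Glul in 6 of 10 fits (adjusted p 0.107 without vehicle replicate 2) and that of Foxo1 in 4 (0.0674 without vehicle replicate 4). Averaged over both states, Per1 (-0.80, adjusted p 0.0171) and Glul (-0.64, adjusted p 0.0245) were lower, as was Tsc22d3 among the members. Pdk4 (0.80), Lpin1 (0.27) and Cdkn1a (3.46) were higher.

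Paralogs of the members were read beside them. Of the 14 listed, 12 were tested, Zbtb32 and Sgk2 being too low. Between genotypes 2 of the 12 were called at rest and 4 after exercise, Fkbp4 among the latter. Of all genes, 3.86% and 6.42% were called there. With exercise in vehicle 1 of the 12 was called, beside 0.804% of all genes. Klf13, of the same subfamily as Klf9, was lower in knockout-labelled muscle at rest (-0.71, SE 0.12, adjusted p 7.33e-04) and after exercise (-0.84, adjusted p 7.55e-05), where Klf9 had values of 0.01 and 0.04. Tsc22d4 was higher in both states (0.41, adjusted p 0.047, and 0.85, adjusted p 4.33e-05), and Tsc22d1 was lower after exercise (-0.34, adjusted p 0.0214). At rest Tsc22d1 had a similar value that was not called (-0.29, SE 0.09, adjusted p 0.0734). Its mean over both states was called (-0.32, adjusted p 0.00134), beside 11.0% of all genes. Leaving out a library ended the resting call of Tsc22d4 in 9 of 10 fits (adjusted p 0.147 without vehicle replicate 3) and that of Tsc22d1 after exercise in 3 (0.0637 without vehicle replicate 1). Cebpb rose with exercise in vehicle (0.80, adjusted p 0.0219, not called in 5 of 10 fits that left out a library, reaching 0.082 without resting replicate 1), where Cebpd had 0.41 and was not called. In knockout-labelled muscle Cebpb had 0.44 (SE 0.17) with exercise and was not called, as no gene was. Its mean response over both genotypes was called (0.62, adjusted p 0.0142), beside 0.634% of all genes. The interaction of Cebpb (-0.36, SE 0.24, adjusted p 0.91) was not called. The differences between a member and its paralog were not tested.

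Partners and targets of the members were read as well. Of 11 tested mTORC1 inputs, which included the paralogs Sesn2, Sesn3 and Ddit4l, 0 were called in any of the 7 comparisons, with 0 to 2 at an unadjusted p under 0.05 in each. Of all genes, 0% to 11.0% were called in these comparisons, and 4.71% to 24.2% had an unadjusted p under 0.05. With 11 genes the counts are not far from this background. No gene at all was called with exercise in knockout-labelled muscle or by the interaction. Castor1 and Castor2 were not found by symbol. Egfr, the receptor that the Errfi1 product inhibits, rose with exercise in vehicle (0.84, SE 0.20, adjusted p 0.0456), a call lost in all 10 fits without 1 library (adjusted p from 0.0553 to 0.143, the highest without resting replicate 4) and under the replicate block (0.0687). Of 3 genes of amino acid use known as KLF15 targets, Gpt, the alanine aminotransferase gene, was higher in knockout-labelled muscle at rest (1.06, adjusted p 5e-04) and after exercise (1.04, adjusted p 4.61e-04), while Klf15 itself had genotype values of 0.19 and -0.16 that were not called. Bcat2 and Prodh were not called in any comparison.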

How the data were processed

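The data were a deposited table of read counts per gene for 20 bulk RNA-seq libraries of mouse gastrocnemius. Per the submitters' processing notes, STAR 2.7.8a, Partek and DESeq2 were used and the builds mm10 and GRCm39 are named, without roles. The counting program, annotation and strand setting are not given in the sources used here. The table is not normalized, and its values are whole numbers.

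Counts were analysed with edgeR 4.0.16 in R 4.3.3: genes were kept by filterByExpr (minimum count 10), which left 13560 genes with 99.83% of counts, and scaled with TMM factors. A quasi-likelihood model with robust dispersions and 1 mean per group was fitted to all 20 libraries, and 7 contrasts were tested with Benjamini-Hochberg adjustment (threshold 0.05). Median total counts were 9024899.5 per library. Mitochondrial genes held 7.55% to 15.0% of counts. Replicates differed by more than counting noise: for the closest pair of each group chi-square per degree of freedom was 4.04 to 12.2, so all 20 were kept. Levels in the text are CPM after TMM scaling, with the SD over the libraries of a group. Single genes were also compared by exact two-sided permutation of log2 CPM.

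The procedure was tested on simulated data. Counts were drawn independently for each gene and library, from 1 mean per gene and the spread estimated for it here. Randomly chosen genes were changed in 1 group. Differences that many genes share within a library, such as fibre makeup, were not simulated, so the shares recovered hold for that setting only. For the comparison of genotypes at rest, with 13396 genes, 74.2% of genes changed by 1 log2 unit and 97.2% of those changed by 2 were recovered. Of the genes called there, 5.56% had not been changed. For exercise in vehicle, with 13408 genes, 73.3% and 97.2% were recovered, and 6.59% of the genes called had not been changed. Alternatives were other scalings (DESeq2's factors, upper quartile, library size), DESeq2 1.42.0, limma-voom (limma 3.58.1), other filters, only the groups compared, a replicate block, non-robust dispersions, mitochondrial genes left out, a slow-fibre covariate and leaving out each library.

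The members and gene lists were chosen with earlier results of these data known. Named genes are the 10 members, the targeted gene, the genes of each list that were called in a comparison, with a few that were not, and for each member the 2 genes of highest correlation. Exon lengths and overlaps came from GENCODE M21 and promoter windows from RefSeq, both GRCm38. The table carries no coordinates. Some genes that the lists or this rule would name are not reported here; they were kept in the fit over all genes and left out of the list counts.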

Additional observations from a re-analysis of the deposited data

Results flagged for a closer look

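In 3 of 60 groups of 5 libraries (15 genes in 4 groups), 1 library stood apart from the nearest other by more than Dixon's 95% critical value of 0.71 of the group's range. Chance flags about 1 in 20 such groups, so 3 of 60 is near that rate. Sgk1 was highest in exercised knockout-labelled replicate 4, at 334.6 CPM (gap 0.74 of the range), and Sesn1 was lowest in the same library, at 16.5 CPM (0.72). Klf15 was highest in resting vehicle replicate 3, at 52.6 CPM (0.73), the resting library that overlaps the exercised ones.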

How the results depend on the processing

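The number of the 10 members called changed under other settings as follows. For exercise in vehicle, 1 in the fit as designed became 0 with upper-quartile factors, library size alone, limma-voom and only the groups compared, and 2 with DESeq2. It stayed 1 with the stricter filter and with non-robust dispersions, but there Klf15 was not called (adjusted p 0.0543 and 0.0508) and Ddit4 was (0.0496 and 0.016). For genotype after exercise, 0 became 1 with library size alone, DESeq2, the stricter filter, only the groups compared, the replicate block, non-robust dispersions and the slow-fibre covariate. For genotype at rest, 0 became 1 with only the groups compared and with the covariate. For the averaged exercise response, 0 became 3 with DESeq2 and 1 with no filter, the stricter filter, non-robust dispersions, mitochondrial genes left out and the covariate. Leaving out 1 library gave 0 to 1 for exercise in vehicle, 0 to 2 for genotype after exercise, 0 to 1 for averaged exercise, 2 to 2 for averaged genotype and 0 to 0 for the rest. The cause of these changes was not tested. Of 1810 alternative fits of single members, 14 lost and 31 gained a call, and none of them reversed a called direction. Glul, exercise in knockout-labelled muscle, was -0.03 with the covariate in place of 0.26 (adjusted p 0.982), neither value called. Over all genes, calls moved by over 1.5 times with DESeq2 (exercise in vehicle 189 against 109, averaged exercise 160 against 86, interaction 2 against 0), limma-voom (averaged exercise 54), only the groups compared (genotype after exercise 567 against 870, exercise in vehicle 61) and the covariate (1415 for genotype after exercise, 845 against 523 at rest, 248 for exercise in vehicle, 254 for averaged exercise and 6 against 0 in knockout-labelled muscle), and without 1 library ran from 52 to 135 for exercise in vehicle and from 35 to 109 for averaged exercise. Among the genes of receptor handling, calls for exercise in vehicle fell from 3 to 1 with library size alone, limma-voom, only the groups compared and the replicate block, and those for averaged exercise (1) ran from 0 to 3. Among the other induced genes, DESeq2 called 8 in place of 5 for exercise in vehicle and 7 in place of 3 for genotype after exercise, and no filter called 2 in place of 6 for averaged exercise.

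Replicate numbers are shared between groups, and the deviations of same-numbered libraries were not correlated above 0.1 in every pair: over 30 pairs r ran from -0.45 to 0.44, 15 were over 0.1, and in 7 a library was closest to its own number. Between exercised vehicle and exercised knockout-labelled muscle r was 0.26, 0.44, 0.41, 0.27 and 0.02 for numbers 1 to 5. With the replicate block, Tsc22d3 after exercise had -0.71 (adjusted p 0.0383), Klf15 with exercise in vehicle 0.58 (0.0467), and members called numbered 0 at rest, 1 after exercise, 1 for exercise in vehicle and 2 for averaged genotype.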
